A study of Mus musculus with 32 samples.

Results

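The small leucine-rich proteoglycans are secreted matrix proteins whose core is built of leucine-rich repeats. A set of 8 of their genes is described here across the cells of mouse fat, namely Dcn (decorin), Lum (lumican), Fmod (fibromodulin), Bgn (biglycan), Ogn (osteoglycin, also called mimecan), Aspn (asporin), Prelp (prolargin) and Omd (osteomodulin). They were taken by symbol as 8 of the 31053 genes of the deposited count matrix. No cutoff on a measured value was used, but earlier results of these data were known when they were chosen. The cells are the stromal vascular fraction of epididymal fat, the cells that stay after mature adipocytes are removed, profiled by 10x Genomics 3′ v3 single-cell RNA sequencing, in which unique molecular identifiers (UMIs) count captured transcripts. The 4 groups compared were WT mice on normal diet, CD169-DTR mice on normal diet, WT mice on high fat diet and CD169-DTR mice on high fat diet. The labels give the strain of the WT mice as C57BL/6 and that of the others only as CD169-DTR, with no background strain. The diets ran for 16 weeks, and every group, WT included, then received diphtheria toxin (DT) over 7 days. The CD169-DTR allele places the diphtheria toxin receptor under control of Siglec1, the gene of the macrophage lectin CD169, so the toxin is aimed at CD169-bearing macrophages and not at fibroblasts. Cells with and without CD45, the pan-leukocyte marker, were separated by sorting and pooled 1:1, with Ly6C-high monocytes and most F4/80-high cells left out, so the ratio of stromal to immune cells in these libraries is set by the sort. Age and the number of mice in a library are not given in the labels.

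Each group had 1 library, sequenced as 8 runs, so no group had replicates and no test between groups was possible. All intervals in parentheses are 95% intervals for counting error only; they say nothing of variation between mice, and UMIs of 1 cell are not independent samples of a mouse. Groups are named by their labels, and a barcode's library follows from the order of the deposited aggregation list. Siglec1 had 5, 113, 51 and 190 UMIs over all kept cells of normal diet WT, normal diet DTR, high fat WT and high fat DTR, in which order groups of 4 values are given throughout. It was thus higher under the DTR label in both diets, so a direction between WT and DTR here is one between labels. Barcodes numbered 5701, 4014, 6696 and 6292, and 4975, 3585, 5112 and 5625 cells were kept, at median depths of 6141 to 9155 UMIs. Libraries shared 298 barcode sequences, the smallest copy having a median of 1.68% of the UMIs of the largest. Among fibroblast-gated cells 79, 78, 8 and 33 carried a shared barcode, as a small or a large copy. Without these cells the largest shift of a member ratio between libraries in fibroblasts was 0.12 on the log2 scale, and shifts in other classes are given with their ratios.

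Decorin and biglycan carry chondroitin or dermatan sulfate chains, lumican, fibromodulin and osteomodulin can carry keratan sulfate, and asporin is usually found without a glycosaminoglycan chain. Most bind collagen fibrils and help set fibril diameter and spacing, and decorin, biglycan and asporin also bind growth factors such as TGF-beta. Free biglycan is known as a ligand of Toll-like receptors. In fat, fibroblastic stromal cells, among them the adipocyte progenitors, are the main known source of this matrix.

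The genes lie in small clusters (GRCm38, GENCODE annotation). Dcn (ENSMUSG00000019929, chr10:97479609-97518143, plus strand) and Lum (ENSMUSG00000036446, chr10:97565128-97572703, plus strand) are next to each other, followed by Kera and Epyc. Aspn (ENSMUSG00000021388, chr13:49544443-49567565), Omd (ENSMUSG00000048368, chr13:49582462-49592822) and Ogn (ENSMUSG00000021390, chr13:49608046-49624501) form a second group on the plus strand, after the related gene Ecm2. Prelp (ENSMUSG00000041577, chr1:133910304-133921414, minus strand) and Fmod (ENSMUSG00000041559, chr1:134037254-134048277, plus strand) share a part of chromosome 1, and Bgn (ENSMUSG00000031375, chrX:73483602-73495933, plus strand) stands alone on the X chromosome. The Aspn, Omd and Ogn genes lie inside the span of Cenpp on the opposite strand, and Prelp overlaps Gm15851 on the opposite strand. Whether the counting used strand is not stated in the labels. Cenpp itself had 0.0973, 2.20, 0.840 and 2.03 CPM (a gene's UMIs per 1000000 UMIs of the cells summed) in fibroblast-gated cells, below Omd and far below Aspn and Ogn in each library.

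RefSeq promoter windows (GRCm38.p6) were matched for 6 of the 8 genes, and Dcn and Lum had no entry. The 250 bases before the start are shown for Bgn and Fmod, the members more than 1 higher on the log2 scale in a library pair. Those of Prelp and Ogn, among the members lower under the DTR label in both diets, are shown too. The windows of Aspn and Omd, which were also lower under that label in both diets, are not shown. The windows shown run 5′ to 3′ on the gene's strand, at chrX:73483351-73483600 for Bgn, chr1:134037004-134037253 for Fmod, chr1:133921402-133921651 for Prelp (minus strand) and chr13:49607765-49608014 for Ogn. Capitals mark matches, on either strand, to GGGCGG (GC box), CCAAT or TATAAA.
Bgn: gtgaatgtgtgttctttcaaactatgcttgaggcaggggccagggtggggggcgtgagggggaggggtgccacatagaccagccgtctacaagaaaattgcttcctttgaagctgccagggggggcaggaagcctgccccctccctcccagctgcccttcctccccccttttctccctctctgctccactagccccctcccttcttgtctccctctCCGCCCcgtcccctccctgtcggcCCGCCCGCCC
Fmod: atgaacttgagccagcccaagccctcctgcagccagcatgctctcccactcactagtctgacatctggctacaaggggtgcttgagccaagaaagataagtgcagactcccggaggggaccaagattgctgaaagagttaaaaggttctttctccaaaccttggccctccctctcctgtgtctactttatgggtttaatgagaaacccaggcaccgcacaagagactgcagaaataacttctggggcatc
Prelp: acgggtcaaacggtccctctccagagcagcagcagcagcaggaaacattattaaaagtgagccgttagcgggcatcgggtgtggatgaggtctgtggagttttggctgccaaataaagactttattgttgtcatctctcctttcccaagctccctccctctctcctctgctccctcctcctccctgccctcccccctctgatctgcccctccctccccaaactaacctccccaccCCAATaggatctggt
Ogn: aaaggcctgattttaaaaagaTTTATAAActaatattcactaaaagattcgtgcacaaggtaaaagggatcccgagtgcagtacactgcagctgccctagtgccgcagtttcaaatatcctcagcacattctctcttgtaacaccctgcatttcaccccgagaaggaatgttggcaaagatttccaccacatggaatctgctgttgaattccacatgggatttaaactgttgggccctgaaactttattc

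The Bgn window had 3 GC box matches, 34, 10 and 6 bases before the start, the last 2 overlapping, and 64.4% G and C. A GC box match was found in 32.7% of 32851 windows of this length, whose median G and C content was 52.4%. Fmod had none of these motifs. Prelp had a CCAAT match 15 bases before the start (33.9% of windows hold one), and the last 13 bases of its window lie inside the GENCODE gene. The 2 TATAAA matches of Ogn, 229 and 227 bases before the start, overlap as 1 site read on both strands (12.4% of windows). The E-box letters CANNTG, not capitalised, are in 66.2% of windows. None of the 6 windows held TGANTCA, the AP-1 element, which 6.75% of windows hold. These are matches of letters in a fixed window and say nothing of what binds there.

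The transcripts were held by fibroblast-gated cells, with an arrangement of their own in mesothelial cells. Cells were classed by the mean level of marker genes that included no member. Fibroblast-gated cells (Pdgfra, Col1a1, Col1a2, Col3a1, Dpt, Serpinf1, Pcolce, Fbn1) numbered 1105, 1113, 1771 and 2856, with 10275231, 14572975, 20250682 and 40952755 UMIs and median depths of 9621, 12233, 11225 and 12902.5 UMIs. All 8 markers were detected in each library. Pdgfra, the receptor that marks fibroblasts, was at 292, 298, 183 and 130 CPM, and Ptprc, which encodes CD45, at 6.27 to 8.92 CPM.

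In lymphoid-gated cells, which do not make these proteins, members were at 0 to 3.31% of the fibroblast level of the same library. With every cell thinned to 2000 UMIs, Dcn was detected in 99.9%, 99.5%, 99.9% and 98.0% of fibroblast-gated cells and in 6.67%, 7.63%, 16.4% and 9.09% of lymphoid-gated cells. The lymphoid share was read as a background level, and whether free RNA or another source gave it was not tested. Shallower cells left out of this count numbered 93, 35, 82 and 67 fibroblasts and 25, 47, 131 and 212 lymphoid cells. Unthinned, the shares were 98.8% to 99.8% in fibroblasts and 14.9% to 30.3% in lymphoid cells. Over the 26 pairs of an immune class and a library with at least 50 cells, Dcn, Lum, Bgn, Aspn, Ogn and Prelp were at no more than 2.83% of the fibroblast level. The highest immune values, 7.12% for Fmod and 35.9% for Omd, rest on 2 and 1 UMIs in dendritic-gated cells.

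**Figure D1:**
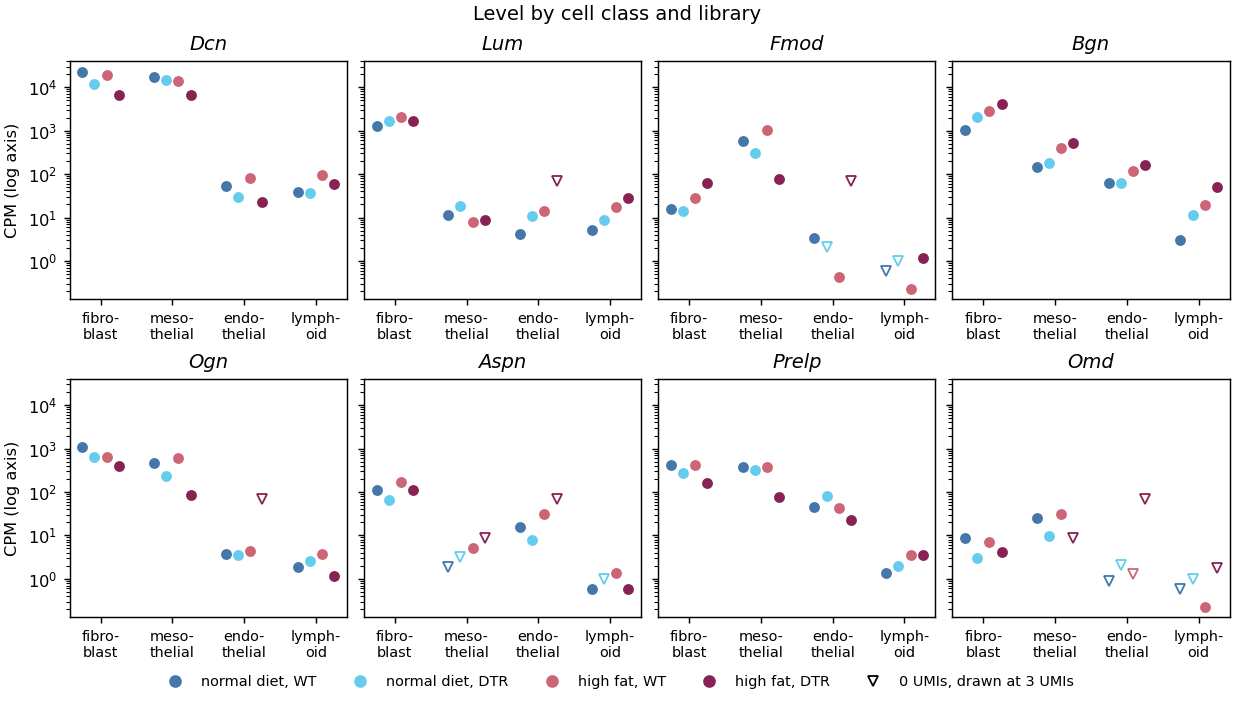
Level of each gene (CPM, log axis) in fibroblast-, mesothelial-, vascular endothelial- and lymphoid-gated cells, 1 point per library; open triangles mark 0 UMIs and are drawn at the level of 3 UMIs. Fmod is higher in mesothelial than in fibroblast cells in 3 libraries, while Lum is far below its fibroblast level there.

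Mesothelial-gated cells (Msln, Upk3b, Lrrn4 and others), which line the surface of the fat pad, numbered 119, 63, 26 and 18. Classed by expression clusters instead, mesothelial cells numbered 138, 83, 31 and 85, so the gate took far fewer in high fat DTR. Ratios to fibroblasts were recomputed by clusters only in normal diet WT. The values below are those of the gated cells. Fmod was at 591 (554 to 630), 299 (265 to 336), 1030 (931 to 1136) and 77.1 (50.4 to 113) CPM in them. That was 36.8, 21.3 and 36.0 times the fibroblast level in the first 3 libraries. In high fat DTR, with 18 cells and 26 UMIs, the log2 ratio to fibroblasts was 0.31 (-0.31 to 0.86). Fmod was detected in 97.5%, 88.9%, 96.2% and 55.6% of mesothelial cells without thinning, against 5.79%, 9.08%, 15.3% and 33.3% of fibroblasts, at similar depths.

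Lum showed the reverse. It had 18, 17, 3 and 3 UMIs in mesothelial cells, or 0.884%, 1.08%, 0.368% and 0.538% of the fibroblast level. Lymphoid cells had 0.403%, 0.518%, 0.839% and 1.74%, so mesothelial Lum was above the lymphoid share in the normal diet libraries and below it in the high fat libraries. Aspn had 0, 0, 2 and 0 UMIs. Bgn was at 149, 176, 399 and 528 CPM, between 8.71% and 14.7% of the fibroblast level. Dcn, in contrast, was at 0.765, 1.24, 0.729 and 0.992 times the fibroblast level, and Prelp at 0.913, 1.20, 0.881 and 0.480 times. Omd was at 2.85, 3.20 and 4.47 times the fibroblast level in the first 3 libraries, on only 39, 9 and 12 mesothelial UMIs. In the fourth library it had 0 UMIs, with an upper interval bound of 10.9 CPM. Ogn was at 470 (437 to 505), 239 (209 to 273), 610 (534 to 693) and 86.0 (57.6 to 124) CPM, or 0.431, 0.377, 0.963 and 0.221 times. The 8 fibroblast markers summed to 4735, 4779, 7390 and 5577 CPM in the mesothelial gate, beside 6578, 5561, 7216 and 5411 CPM of the mesothelial markers; their part in the levels there was not tested.

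Vascular endothelial-gated cells numbered 800, 405, 511 and 15. In the first 3 libraries Prelp was at 44.5 (37.6 to 52.3), 78.8 (64.8 to 94.9) and 43.1 (35.1 to 52.4) CPM there, against 1.35 to 3.46 in lymphoid cells of the same libraries. Bgn was at 63.1, 62.5 and 116 CPM and Aspn at 15.5, 7.81 and 31.0 CPM. Without barcodes shared between libraries, which left out 1 cell of high fat WT, Aspn there was at 19.9 (14.5 to 26.6) CPM on 45 instead of 72 UMIs, found in 15 of 510 cells, and Bgn at 98.1 CPM. Dcn, by far the most counted member in fibroblasts, was at 52.7, 29.8 and 82.7 CPM, near its lymphoid level of 38.7, 36.7 and 97.2 CPM. The members therefore did not stand in the fibroblast ratio in these cells. Pericyte and smooth muscle markers summed to 251, 159 and 252 CPM in the endothelial gate, and adipocyte markers to 1530, 891 and 197 CPM; their part in these levels was not tested.

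Pericyte and smooth muscle-gated cells were only 11 in all (6, 2, 3 and 0). Aspn had 52, 9 and 27 UMIs in them, 1914 (1429 to 2510), 835 (382 to 1585) and 1789 (1179 to 2603) CPM. That was 16.9, 12.8 and 10.3 times the fibroblast level, and 10 of the 11 cells held an Aspn UMI. Fmod had 0 UMIs and Dcn 5 in the same 11 cells.

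**Figure D2:**
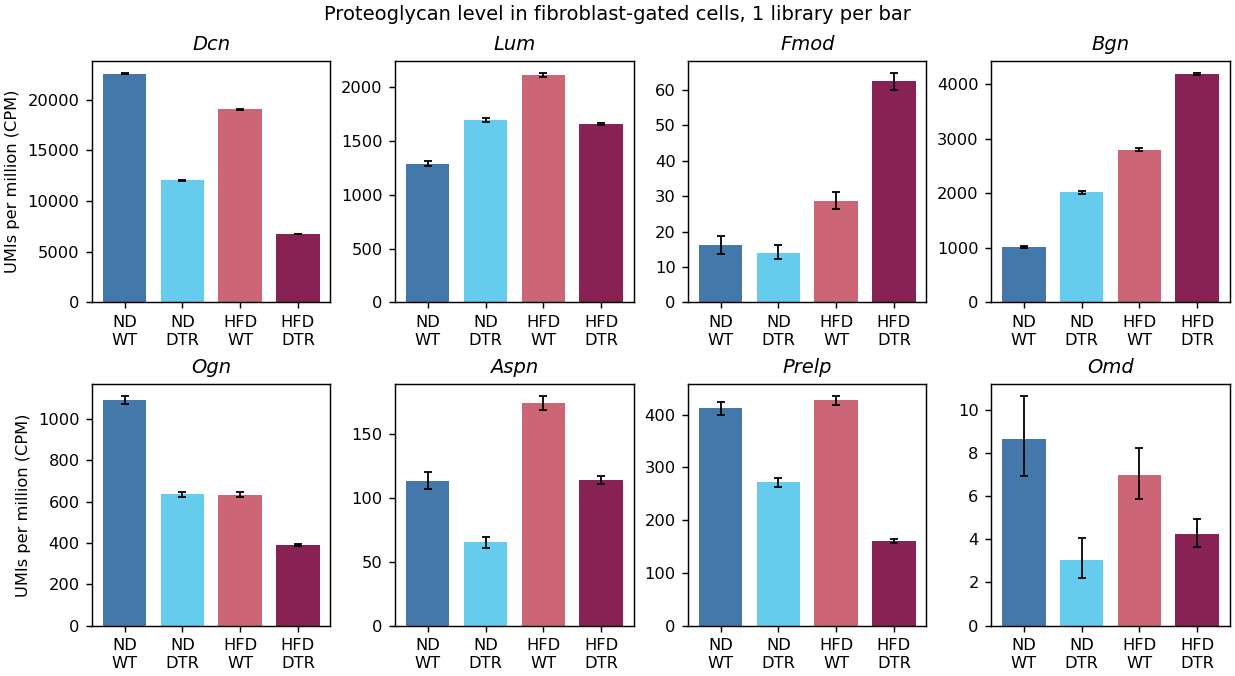
Level (CPM) of each gene in fibroblast-gated cells, 1 bar per library with 95% counting intervals; each panel has its own axis from 0. Dcn is lowest and Bgn and Fmod are highest in high fat DTR.

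The study asked how ablating resident macrophages acts on other cells of lean and obese fat, and these values compare the labelled libraries. In fibroblasts Dcn and Bgn differed between the labels in opposite directions. Dcn, the decorin gene, was at 22575 (22483 to 22667) CPM in normal diet WT, 12035 (11979 to 12092) in normal diet DTR, 19045 (18985 to 19106) in high fat WT and 6728 (6702 to 6753) in high fat DTR. It was lower under the DTR label in both diets, by a log2 ratio of -0.91 (-0.92 to -0.90) on normal diet and -1.50 (-1.51 to -1.49) on high fat diet, or 1.88 and 2.83 times. Bgn, of the same class of the family, went the other way. It was at 1018 (998 to 1037), 2019 (1996 to 2042), 2804 (2781 to 2827) and 4197 (4177 to 4217) CPM, lowest in normal diet WT and highest in high fat DTR. DTR exceeded WT by a log2 ratio of 0.99 (0.96 to 1.02) on normal diet and of 0.58 (0.57 to 0.60) on high fat diet.

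Fmod was low in fibroblasts, at 16.1 (13.7 to 18.7), 14.1 (12.2 to 16.1), 28.6 (26.3 to 31.0) and 62.3 (60.0 to 64.8) CPM. The 2 normal diet libraries overlapped within counting error, with a log2 ratio of -0.19 (-0.49 to 0.11), and high fat DTR was above high fat WT by 1.13 (0.99 to 1.26). Mesothelial markers summed to 10.0, 4.87, 0.642 and 29.0 CPM in the fibroblast gate, also highest in high fat DTR. In mesothelial-gated cells of high fat DTR the same markers summed to 5411 CPM beside 77.1 CPM of Fmod. That pair fell short of a log2 ratio of 1 under TMM scaling (0.82), without contractile and cycling cells (0.85), with no margin between the fibroblast gate and the next class (0.96) and as the mean of the ratios within states (0.68).

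Lum was at 1288 (1266 to 1310), 1695 (1674 to 1716), 2114 (2094 to 2134) and 1655 (1643 to 1667) CPM, highest in high fat WT. The DTR library was above WT on normal diet by a log2 ratio of 0.40 (0.37 to 0.43) and below it on high fat diet, at -0.35 (-0.37 to -0.34). Neither passed a log2 ratio of 1. Dcn and Lum, neighbours on chromosome 10, thus differed in direction on normal diet.

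Prelp, which encodes a heparin-binding anchor between matrix and basement membrane, was at 412 (400 to 425), 272 (264 to 281), 427 (418 to 436) and 161 (157 to 165) CPM. It was lower under the DTR label by -0.60 (-0.66 to -0.54) on normal diet and -1.41 (-1.46 to -1.36) on high fat diet, while the 2 WT libraries overlapped within counting error. Ogn was at 1092 (1072 to 1112), 635 (622 to 648), 633 (622 to 644) and 390 (384 to 396) CPM, with log2 ratios of -0.78 (-0.82 to -0.74) and -0.70 (-0.73 to -0.67). Normal diet DTR and high fat WT could not be told apart for Ogn at this depth.

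Aspn was at 113 (107 to 120), 65.1 (61.0 to 69.3), 174 (168 to 180) and 114 (111 to 117) CPM, so that normal diet WT and high fat DTR overlapped. The DTR label was lower by -0.80 (-0.93 to -0.68) and -0.61 (-0.67 to -0.55). Omd, the rarest member, had 89, 44, 141 and 174 UMIs, or 8.66 (6.96 to 10.7), 3.02 (2.19 to 4.05), 6.96 (5.86 to 8.21) and 4.25 (3.64 to 4.93) CPM. Its ratios were -1.52 (-2.08 to -0.98) and -0.71 (-1.04 to -0.38). All 3 genes of the chromosome 13 group were therefore lower under the DTR label in both diets, as was their neighbour Ecm2, at 140, 102, 134 and 50.9 CPM.

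Among 11091 genes with at least 50 UMIs over the 2 normal diet libraries, 6.83% were higher and 3.02% lower by a log2 ratio of 1 or more under the DTR label, and of the 8 members 0 were higher and 1, Omd, was lower. On high fat diet 17.2% of 12589 genes were higher and 3.73% lower by that much, against 1 member higher (Fmod) and 2 lower (Dcn and Prelp). The median log2 ratio of the members was -0.69 on normal diet and -0.65 on high fat diet, beside 0.11 and 0.33 over all genes tested. Of all genes tested, 38.0% had a ratio below -0.02 on normal diet and 28.3% one below 0.01 on high fat diet. In either diet 6 of the 8 members had a ratio below 0. Fmod was among them on normal diet, where its interval spanned 0, and Lum on high fat diet, and Bgn was above 0 in both. TMM scaling, which centres on the bulk of the genes, moved every ratio by -0.10, -0.30, 0.11 and -0.09 in the 4 pairs and turned none of these signs. Genes of the dissociation response (Fos, Jun, Atf3, Hspa1a, Hspa1b) summed to 5237, 5086, 7738 and 9103 CPM in these fibroblasts, highest in high fat DTR; their part in the ratios was not tested.

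**Figure D3:**
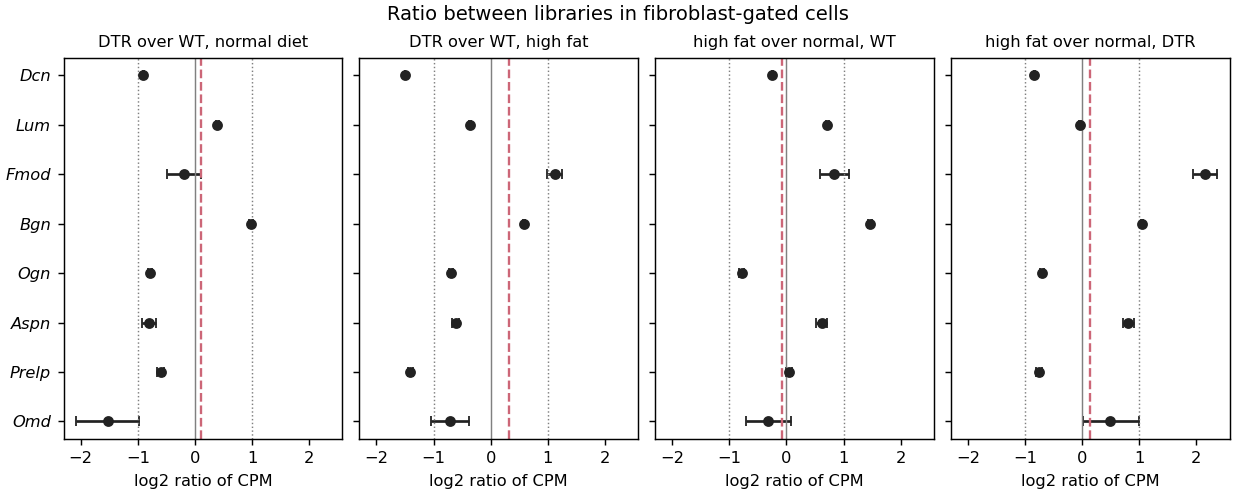
log2 ratio of CPM between 2 libraries in fibroblast-gated cells, with 95% counting intervals, for the 4 library pairs; dotted lines mark ratios of -1 and 1, and the dashed line is the median of all genes tested. Bgn lies right of the dashed line and Ogn left of it in all 4 panels.

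The diet pairs use the same 4 libraries in another order, so they are not independent of the values above. In WT, high fat over normal diet gave 1.46 (1.43 to 1.49) for Bgn, 0.83 (0.58 to 1.09) for Fmod, 0.71 (0.69 to 0.74) for Lum and 0.62 (0.52 to 0.72) for Aspn. Dcn was at -0.25 (-0.25 to -0.24) and Ogn at -0.79 (-0.82 to -0.75), while the intervals of Prelp (0.05, -0.0027 to 0.10) and Omd (-0.32, -0.71 to 0.084) spanned 0. Past a log2 ratio of 1 there were 1 member higher, Bgn, and 0 lower, where 2.69% and 4.05% of 11127 genes were.

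Between the 2 DTR libraries, high fat over normal diet gave 2.15 (1.94 to 2.36) for Fmod, 1.06 (1.04 to 1.07) for Bgn and 0.81 (0.71 to 0.91) for Aspn. Omd was at 0.49 (0.0085 to 1.00) on 44 and 174 UMIs. Dcn was at -0.84 (-0.85 to -0.83), Prelp at -0.76 (-0.82 to -0.70), Ogn at -0.70 (-0.74 to -0.67) and Lum at -0.03 (-0.06 to -0.01). Here 2 members, Fmod and Bgn, were higher by 1 or more and 0 lower, against 8.68% and 4.47% of 12537 genes. Ogn was thus lower and Bgn higher on high fat diet under either label. Aspn was higher on high fat diet and lower under the DTR label. These ratios are over all fibroblasts. Within the fibroblast states described below, the diet ratios of some members, Dcn and Aspn among them, did not keep the same sign in every state.

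The make-up of the proteoglycan transcripts differed accordingly. The 8 genes took 2.65%, 1.67%, 2.52% and 1.33% of all fibroblast UMIs. Dcn was 85.1%, 71.9%, 75.5% and 50.5% of these, and Bgn 3.84%, 12.1%, 11.1% and 31.5%. For every 100 Dcn UMIs there were 4.51, 16.8, 14.7 and 62.4 Bgn UMIs. Normal diet DTR and high fat WT lay close together on this measure, between the other 2 libraries. Lum was 4.86%, 10.1%, 8.38% and 12.4% of the member UMIs.

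**Figure D4:**
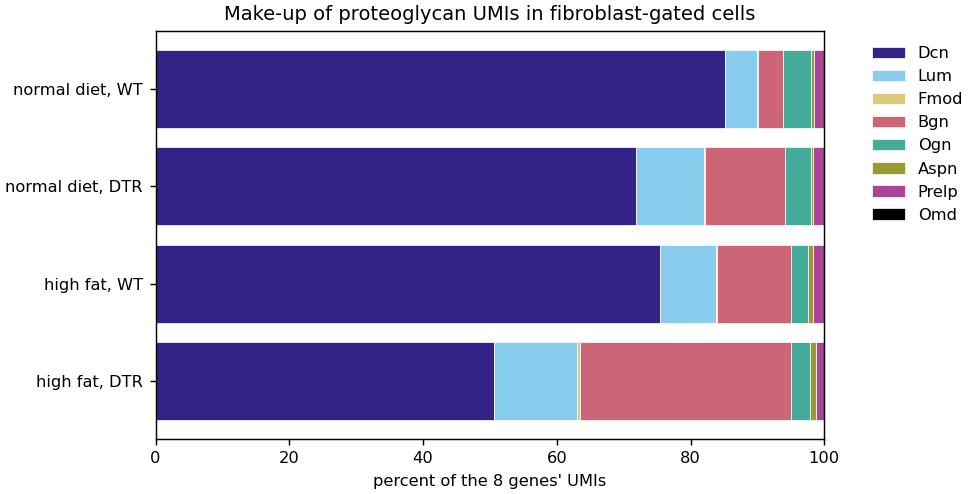
Share of the 8 genes' UMIs taken by each gene in fibroblast-gated cells of each library, in percent. Dcn takes 85.1% in normal diet WT and 50.5% in high fat DTR, and Bgn 3.84% and 31.5%.

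The difference ran through the whole range of cells. Per 10000 UMIs of a cell, the median Dcn count was 218, 122, 183 and 69.5. The 90th percentile of high fat DTR, 134, did not reach the 25th percentile of high fat WT, 135. For Bgn the medians were 8.21, 18.5, 22.7 and 40.8. The 10th percentile of high fat DTR, 19.4, was near the 90th percentile of normal diet WT, 22.1, a pair that differs in both diet and label. Within high fat diet the Bgn ranges overlapped widely, with 10th to 90th percentiles of 7.55 to 50.6 in WT and 19.4 to 67.0 in DTR. Cells with more Bgn than Dcn UMIs made up 1.27% (0.694 to 2.12), 1.26% (0.689 to 2.10), 1.52% (1.01 to 2.21) and 26.6% (25.0 to 28.3) of fibroblasts, a measure chosen after the values were seen.

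At a common depth of 2000 UMIs, Prelp was detected in 53.6%, 38.9%, 54.3% and 26.3% of fibroblasts and Ogn in 85.2%, 65.5%, 66.1% and 50.9%. Fmod was detected in 2.37%, 1.76%, 4.38% and 10.8%, Aspn in 14.8%, 10.8%, 19.9% and 17.4%, and Omd in 2.08%, 0.649%, 1.24% and 0.860%. Lymphoid cells gave at most 1.11% for Ogn, 0.664% for Prelp, 0.325% for Fmod and 0.111% for Aspn, and 0% for Omd. Without thinning, the Fmod shares were 5.79%, 9.08%, 15.3% and 33.3% and the Aspn shares 28.6%, 27.2%, 45.4% and 47.9%. Bgn was detected in 72.9%, 93.8%, 94.3% and 98.2% and Lum in 79.0%, 88.7%, 91.7% and 86.2% of thinned cells. Their lymphoid shares were higher than those above, at 0.667%, 1.71%, 4.32% and 10.4% for Bgn and 0.890%, 1.87%, 3.88% and 4.87% for Lum.

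Within a library the members did not all vary together from cell to cell. Across cells thinned to 2000 UMIs, Dcn and Lum were correlated with a Pearson r of 0.08, 0.38, 0.18 and 0.57. Dcn with Bgn gave -0.02, 0.12, -0.14 and 0.20. Lum and Bgn were at 0.18 to 0.21, Dcn and Ogn at 0.14 to 0.24 and Dcn and Prelp at 0.10 to 0.21, positive in all 4 libraries. Dcn and Aspn ranged from -0.28 to 0.01. These correlations are over 1012, 1078, 1689 and 2789 cells that share a library. All other pairs lay between -0.12 and 0.17, and none was read as a finding. Many of them involve sparsely counted genes, but Bgn with Ogn (-0.12 to 0.09) and Lum with Ogn (-0.02 to 0.17) do not.

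Fibroblasts were split into states by 5 marker lists without members, each cell taking its highest standardised score. Dpp4-high cells (Dpp4, Pi16 and other genes of early progenitors) numbered 205, 185, 260 and 501, and Col15a1-high cells (Col15a1, Pparg, Lpl and others, of committed preadipocytes) 97, 417, 485 and 405. Sult1e1-high cells (Sult1e1, Dpep1, Inmt and others) numbered 682, 248, 573 and 13, contractile cells (Acta2, Tagln, Tnc and others) 9, 32, 28 and 961, and cycling cells 9, 29, 13 and 157. A further 103, 202, 412 and 819 had no score of 0.5 or more, and 88, 185, 341 and 665 cells lay within 0.2 of that threshold, so the states are ranges of a score. The mix differed strongly between libraries, so the ratios were also read within states that held 50 cells in both libraries.

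Dcn was highest in Sult1e1-high cells, at 26383, 18843 and 24625 CPM in the first 3 libraries, and in high fat DTR it was lowest in the cycling and contractile cells, at 4576 and 5232 CPM. Within states it stayed lower under the DTR label, in 4 of 4 states on normal diet (log2 ratios of -0.84 to -0.49) and 3 of 3 on high fat diet (-1.34 to -0.96). On high fat diet its difference was smaller in each state than over all fibroblasts. In the diet pairs Dcn did not keep its direction in every state. High fat over normal diet ran from -0.26 to 0.26 in WT, above 0 in 1 of 4 states. Between the DTR libraries it ran from -0.76 to 0.08, above 0 in 1 of 3 states. Bgn was higher under the DTR label in every state compared, by 0.58 to 0.90 on normal diet and 0.47 to 0.66 on high fat diet. It was at 4726 CPM in the contractile cells of high fat DTR, and at 3186 in the Dpp4-high, 4868 in the Col15a1-high and 3911 in the stateless cells of that library.

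Among states with 50 cells, Aspn was highest in Dpp4-high cells in the first 3 libraries, at 308 (285 to 333), 130 (117 to 145) and 254 (236 to 273) CPM, against 46.4, 21.1 and 75.7 in Sult1e1-high cells. The contractile cells, only 9, 32 and 28 in these libraries, were at 122 (1 UMI), 130 (104 to 161) and 593 (531 to 661) CPM, so that in high fat WT they stood above the Dpp4-high cells. In high fat DTR the contractile cells, at 136, and the Dpp4-high cells, at 124, were highest. Within states it was lower under the DTR label by -2.49 to -1.01 on normal diet and -1.12 to -0.59 on high fat diet. The ratio over all fibroblasts on normal diet, -0.80, was smaller in size than that of any state. Among states with 50 cells Omd was highest in Dpp4-high cells, at 15.3, 5.66, 15.3 and 4.91 CPM, but its interval stood apart from those of all the others only in high fat WT.

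Fmod was lowest in Dpp4-high cells in every library among states with 50 cells, at 2.87, 1.13, 10.2 and 8.55 CPM. The contractile and cycling cells of normal diet WT, 9 each, had 0 Fmod UMIs. In high fat DTR it reached 124 (115 to 134) CPM in Col15a1-high and 82.6 in contractile cells. Its DTR over WT ratio on high fat diet was 1.76 (1.54 to 1.98) in Col15a1-high, 0.54 (0.25 to 0.83) in stateless and -0.25 (-0.91 to 0.43) in Dpp4-high cells. On normal diet its ratio was below 0 in 3 of 4 states, among them Dpp4-high cells with only 6 UMIs in WT and 3 in DTR.

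Prelp was lower under the DTR label in all states compared, by -0.72 to -0.32 on normal diet and -1.25 to -1.01 on high fat diet, and so was Ogn, by -0.81 to -0.43 and -0.79 to -0.26. Among states with 50 cells Prelp was lowest in Dpp4-high cells in the first 3 libraries, at 271, 211 and 309 CPM, where the stateless cells of the last 2, at 222 and 319, overlapped them. Some smaller states had lower values, such as the contractile cells of normal diet DTR, at 194 (162 to 230), and of high fat WT, at 224 (186 to 267) CPM, of which the first overlapped the Dpp4-high cells. Lum was higher under the DTR label in 3 of 4 states on normal diet (0.33 to 0.58), and in stateless cells its interval spanned 0 (0.03, -0.08 to 0.14). On high fat diet it was higher in Dpp4-high cells, at 0.38 (0.33 to 0.43), and lower in Col15a1-high cells, at -0.28 (-0.31 to -0.24), and stateless cells, at -0.24 (-0.28 to -0.21). Omd had a ratio below 0 in all 4 states on normal diet and in all 3 on high fat diet, but on few UMIs. Normal diet WT and DTR had 4 and 4 in stateless and 6 and 17 in Col15a1-high cells. High fat WT and DTR had 24 and 41 in stateless and 33 and 22 in Col15a1-high cells. In each of these comparisons the intervals of the 2 Omd levels overlapped, and in Dpp4-high cells they stood apart in both diets.

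**Figure D5:**
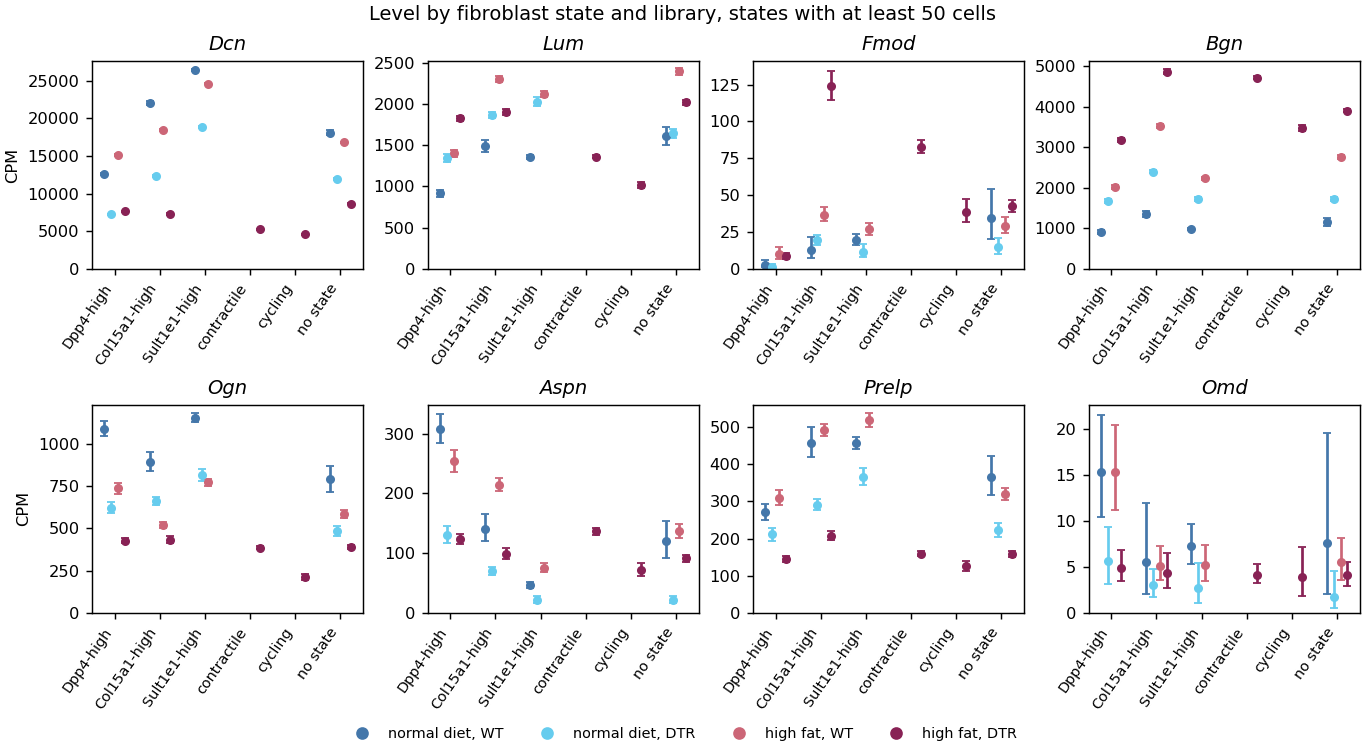
Level (CPM) of each gene in fibroblast states with at least 50 cells, 1 point per library with 95% counting intervals. Aspn is high and Fmod low in Dpp4-high cells of normal diet WT, and Bgn is highest in high fat DTR in Dpp4-high, Col15a1-high and stateless cells.

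Outside fibroblasts the library pairs were thinner. In mesothelial cells on normal diet, of 5 members with 50 UMIs, 0 were higher and 0 lower under the DTR label by a log2 ratio of 1, beside 2.82% and 1.92% of 5781 genes. Fmod and Ogn came closest, at -0.98 (-1.18 to -0.79) and -0.98 (-1.20 to -0.76), and Dcn was at -0.21 (-0.24 to -0.18). In vascular endothelial cells on normal diet, 0 of 4 members were higher and 0 lower by that much, against 1.16% and 1.19% of 7395 genes. Prelp was higher there under the DTR label, at 0.83 (0.46 to 1.19), where fibroblasts had it lower. In the WT libraries, high fat over normal diet again gave 0 higher and 0 lower of 4 endothelial members (1.02% and 1.89% of 7851 genes), with Bgn at 0.88 (0.61 to 1.15), Aspn at 1.00 (0.46 to 1.54), short of the fold before rounding, and Prelp at -0.05 (-0.43 to 0.33). Without shared barcodes, which left out 1 cell of high fat WT and 6 of normal diet WT, Aspn was at 0.35 and Bgn at 0.63. On normal diet endothelial Aspn was at -0.99 (-2.08 to -0.03) and, without them, just past the fold. Mesothelial Fmod and Ogn were then both at -0.79, and the other ratios of these classes moved by at most 0.10.

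Other genes of the family and its matrix were read in fibroblasts from 6 lists: further family genes, fibrillar collagens and their partners, enzymes of the chondroitin or dermatan sulfate and of the keratan sulfate chains, receptors and ligands, and proteases. A member of a list is called higher or lower below where its log2 ratio passed 1, as above, and the share of all genes that did so is the one given for that pair. Of 10 further family genes, 5 had enough UMIs. Podn (podocan), at 134, 82.8, 139 and 25.7 CPM, was lower under the DTR label by -0.70 (-0.81 to -0.59) on normal diet and -2.43 (-2.54 to -2.33) on high fat diet. On normal diet 1 was higher (Epyc, 1.10) and 1 lower (Chadl, -1.38), and on high fat diet 0 were higher and 2 lower (Podn and Ecm2, -1.40). The list medians were -0.47 and -0.84, beside 0.11 and 0.33 over all genes. In the diet pairs 0 and 0 passed in WT and 0 and 1 (Podn, -1.69) in DTR, with medians of -0.07 and -0.25 beside -0.08 and 0.14.

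Of the 17 fibrillar collagens and fibril partners, those past the fold were all higher. On normal diet 4 were higher under the DTR label and 0 lower (Col3a1 at 1.43 and Eln, the elastin gene, at 1.33 were highest), with a median of 0.67. On high fat diet 2 were higher and 0 lower (Col12a1 at 1.56 and Col1a1 at 1.25), with a median of 0.53 and ratios from -0.70 (Col6a3) upward; 17.2% of all genes were higher in that pair. High fat over normal diet gave 3 higher and 0 lower in WT (Eln at 1.49 and Col3a1 at 1.41) and 2 higher and 0 lower in DTR (Col12a1 and Col1a1, both at 1.20), with medians of 0.66 and 0.39. Col1a1, Col1a2, Col3a1 and Fbn1 are also markers of the fibroblast gate. With a gate free of collagen genes, no member ratio moved by more than 0.05.

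Of 18 measured enzymes that build the linker and the chondroitin or dermatan sulfate chains, those past the fold were all higher. On normal diet they were 2, the linker galactosyltransferase B3galt6 at 1.28 and the chondroitin synthase Chsy1 at 1.10, and on high fat diet 1, the chondroitin sulfotransferase Chst11 at 1.46. In the diet pairs they were 1 in WT, Chst11 at 1.38, and 2 in DTR, Chst11 at 2.05 and B4galt7 at 1.14. The medians were 0.29, 0.12, 0.20 and 0.05 in the order of the 4 pairs, beside 0.11, 0.33, -0.08 and 0.14 over all genes. Of 5 keratan sulfate enzymes, the sulfotransferase Chst1, at 29.2, 5.21, 11.1 and 3.98 CPM, was lower under the DTR label by -2.48 (-2.87 to -2.12) and -1.48 (-1.77 to -1.18). Chst2 was higher on high fat diet, at 1.28. In the diet pairs B3gnt2, at -1.63 in WT and -1.59 in DTR, and Chst1 in WT, at -1.40, were lower. The medians were -0.46, 0.33, -0.54 and -0.09.

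Among receptors and ligands, 2 of 15 were higher under the DTR label on normal diet, Cd44, the hyaluronan receptor, at 1.47 and Tlr2, a Toll-like receptor, at 1.24, and 1 was lower, Bmp4, at -1.89. On high fat diet 3 of 16 were higher, led by Met at 1.49 and Tlr2 at 1.12, and 1 was lower, Bmp4, at -1.66. In the diet pairs 0 were higher and 2 lower in WT, Met at -2.35 and Itga2 at -1.18, and 1 was higher and 1 lower in DTR, Tgfb1 at 1.39 and Tlr2, at 33.0 CPM on normal and 16.5 on high fat diet, by just over the fold. The medians were 0.07, 0.61, -0.18 and -0.14. Of 8 proteases that can cut these proteoglycans or process matrix, 2 were higher on normal diet, Mmp3 at 2.90 and Adamts9 at 1.57, and 1 on high fat diet, Adamts9 at 2.11, with 0 lower in either. Mmp3 was at 3.31, 24.6, 150 and 88.8 CPM, so that high fat over normal diet was 5.50 (5.01 to 6.03) in WT and 1.85 (1.69 to 2.01) in DTR, where Adamts4, at -1.04 and -1.34, was lower. The medians were 0.23, -0.16, -0.17 and 0.08.

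The genes most like each member in pattern were found over 24 sums of a class and a library, with 6 classes of which fibroblasts are the only non-immune one, so that likeness there mostly means being a fibroblast gene. On log2(CPM + 1), Bgn was most like Col3a1 (Pearson r 0.99), Col1a2 (0.99) and Sparc (0.99), and Lum was most like Sparc, Fbln2 and Col6a1 (all 0.99). Dcn was most like Pcsk5 (0.99), Gpr161 (0.98) and Gm16118 (0.98), and Prelp most like Slit3 (0.99), Lama2 (0.98) and Lbp (0.98). Ogn was most like Gpr153, Islr and Scn7a (0.98 each), Aspn like Radil, Mpdz and Fzd8 (0.98 to 0.99), Fmod like B830012L14Rik, Gm32219 and Fzd2 (0.98 to 0.99) and Omd like Fam13c, Bmp6 and Kcnk2 (0.98 to 0.99). Over 17 sums of a fibroblast state and a library, added after the first values were seen, Dcn was most like C7, Galnt15 and Plau (0.96 to 0.97) and Prelp like Dpep1, Hsd11b1 and Plau (0.96 to 0.97). Bgn was most like Sparc (0.98), Amn (0.97) and Col1a2 (0.96), and Ogn most like Plpp3 (0.96), Wnt5a (0.95) and Pcsk5 (0.95).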

How the data were processed

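Raw UMI counts per gene and barcode were deposited by the authors as 1 matrix of 31053 genes over 4 libraries. Per the submitters' processing notes, the pipeline was Cell Ranger 3.1.0 with the mm10 build. Whether depth was equalised on pooling is not stated there. The 32 sample records are 8 runs of each library. Kept cells had 300 or more genes and no more than 10% of UMIs from mitochondrial genes, and Scrublet in scanpy 1.11.5 removed 1.41%, 1.06%, 1.39% and 1.41% as doublets (the labels estimate 5.4% multiplets). A cell took the class with the highest mean log marker level if at least 3 markers were detected and the score was 1.5 times the next, which left 25.2%, 14.6%, 15.7% and 15.5% without a class. For mesothelial, endothelial, pericyte and other non-immune classes the fibroblast score was not counted as the next one. Cells at 1.2 to 1.5 times, just outside the fibroblast gate, numbered 5, 6, 6 and 34, and those at 1.5 to 2 times, just inside, 12, 6, 4 and 38.

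UMIs were summed per class and library. Levels carry exact Poisson intervals, log2 ratios conditional exact binomial intervals, and shares exact Clopper-Pearson intervals, all at 95%. A gene needed 50 UMIs over 2 libraries, and was called at a log2 ratio of 1 in size. No test was run. Members, gene lists and comparisons were chosen with earlier results of these data known. All 8 members are named; of each list in each pair the text names the 2 highest and 2 lowest genes past the fold, plus Podn, Ecm2, Chst1 and Mmp3 levels and Siglec1, chosen after their values were seen, and for each member the 3 genes with the highest correlation among those with at least 200 UMIs. Ccn4 was not found by symbol. Alternatives used edgeR 4.0.16 for TMM and leidenalg 0.10.2 for clusters (30 components, 15 neighbours, resolution 1.5). The interval code was tested on simulated data.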

Additional observations from a re-analysis of the deposited data

Results flagged for a closer look

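Lum in fibroblast-gated cells was marked because its libraries labelled DTR and WT stood in opposite order in the 2 diets, each beyond counting error. DTR over WT gave a log2 ratio of 0.40 on normal diet and -0.35 on high fat diet, a difference of -0.75. With 1 library per group the difference was not tested. Over the settings of the next section the normal diet ratio ranged from 0.30 to 0.50 and the high fat ratio from -0.66 to -0.05. The high fat ratio was nearest 0 as the mean within states, and was -0.14 without contractile and cycling cells. Its size thus depended on the setting, while its sign was kept. Within states, Dpp4-high cells kept a ratio above 0 on high fat diet, at 0.38, and Col15a1-high cells did not, at -0.28.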

How the results depend on the processing

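All 32 member ratios in fibroblasts (8 genes in 4 library pairs) were recomputed under 13 settings, of which 3 were chosen after seeing the data (no gate margin, no shared barcodes, no contractile or cycling cells). The sign was kept in 412 of 416 cases; the exceptions were all of Lum between the DTR libraries, whose ratio of -0.03 ranged from -0.13 to 0.26. Of the recomputed ratios 299 stayed within the main counting interval. Members past a log2 ratio of 1 changed in number as follows. On normal diet the number higher under the DTR label, 0, became 1 with the stricter cell filter and without shared barcodes, and the number lower, 1, became 2 under TMM scaling and as the mean within states, and 0 at a minimum of 200 UMIs. On high fat diet the number higher, 1, became 0 under TMM scaling, within states, with no gate margin and without contractile and cycling cells, and the number lower, 2, became 4 under TMM scaling. High fat over normal diet in DTR went from 2 higher to 1 under TMM scaling and without contractile and cycling cells. TMM scaling moves all ratios of a pair by 1 constant, and the within-state mean gives each state the same weight; other causes were not tested. The widest ranges were those of Fmod between the DTR libraries (1.61 to 2.37), and of Aspn on normal diet (-1.47 to -0.77) and Dcn on high fat diet (-1.80 to -1.09) under the DTR label. Leaving out shared barcodes in mesothelial, endothelial and pericyte-gated cells was also added after seeing the data. No paired analysis was possible because each group has 1 library. Depth limits Omd and Fmod most in fibroblasts, and Omd in mesothelial cells of every library. It also limits every value in mesothelial cells of high fat DTR and in pericyte-gated cells.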
